A study of Mus musculus with 15 samples.

Results

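The genes described here are 30 genes that supply protein synthesis with its substrates: the 20 genes for subunits of the cytosolic aminoacyl-tRNA synthetases of all the amino acids, and 10 genes for enzymes of asparagine, serine, glycine, folate and proline metabolism. They were chosen by name, and each was read from its brightest probe on the array (*Farsa*, *Farsb*, and *Vars* stand there under older symbols). All 30 were among the 34765 probes tested of 41174 on the array. All were well above background on all 15 arrays, and none was saturated.

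The samples were uteri of adult ovariectomized female mice (at least 10 weeks old) that had rested 10 to 14 days after surgery. Each mouse received a single intraperitoneal injection of 100 ul saline, alone or with 250 ng estradiol (E2) or 250 ng estriol (E3), a weaker estrogen with an additional hydroxyl group on its D ring. The uteri were taken 2 or 24 hr later, and RNA was measured on one-color Agilent arrays with 3 arrays for each of 5 groups: saline 24 hr, E2 2 hr, E3 2 hr, E2 24 hr, and E3 24 hr. The mice were C57bl6/J except those of the E2 2 hr group, which were C57bl6/Jx129 with a WT *Esr1* genotype. The E2 2 hr arrays were also on slides of their own and read on another scanner, so for this group compound, strain, slide, and scanner cannot be told apart. At 24 hr as well, the E2 and E3 arrays were each on slides that held no other group, so compound and slide cannot be told apart in the 24 hr comparisons either. The only saline arrays are those at 24 hr, and they serve as the control of both times. In the 2 hr comparisons with saline, compound and time after injection therefore cannot be told apart. The labels describe each uterus as homogenized singly, whereas the methods speak of pooled tissue, and p-values therefore measure only the spread between these arrays.

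An aminoacyl-tRNA synthetase joins an amino acid to its tRNA, the form in which the ribosome uses it. The serine pathway branches from glycolysis, and serine in turn gives glycine and folate-bound one-carbon units for purine and thymidylate synthesis. In many cells, genes of both groups are activated together by the transcription factor ATF4 when amino acids run short or growth factors call for protein synthesis. The uterus of the ovariectomized mouse is known to take up water and then to grow within a day of E2, with DNA synthesis in its epithelium.

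ATF4 binds the C/EBP-ATF response element, written here as TGATGNAA and searched on both strands. The promoter windows of RefSeq (build GRCm38.p6), from 250 bases before to 50 bases after the gene start, were found for 23 of the 30 members. *Cars*, *Hars*, *Lars*, *Nars*, *Rars*, *Vars*, and *Wars* were not matched. The element was present for 7 of the 23 (30.4%), against 3.97% of all 32851 promoters. They are shown because the same factor is known to drive the *Asns* promoter through such an element. Each line reads 5′ to 3′ on the strand of the gene, with the element in capitals.

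*Asns*, chr6:7693210-7693252, minus strand, element from -23 to -16: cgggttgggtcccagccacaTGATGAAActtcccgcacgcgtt

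*Pycr1*, chr11:120643824-120643871, minus strand, element from -103 to -96: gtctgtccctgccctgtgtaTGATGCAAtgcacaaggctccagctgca

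*Aars*, chr8:111033710-111033757, plus strand, element from -112 to -105: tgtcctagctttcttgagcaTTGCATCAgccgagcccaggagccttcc

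*Gars*, chr6:55037951-55037998, plus strand, element from -30 to -23: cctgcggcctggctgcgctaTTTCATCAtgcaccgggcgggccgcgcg

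*Tars*, chr15:11399659-11399693, minus strand, element from -15 to -8: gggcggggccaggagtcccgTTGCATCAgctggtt

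*Iars*, chr13:49682117-49682144, plus strand, element from 8 to 15: tgagcctggcactgtcagtaTTGCATCA

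*Yars*, chr4:129189886-129189913, plus strand, element from 4 to 11: agcggagcgacgagctcagcTGATGCAA

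Negative positions count back from the gene start and positive ones forward from it. *Aars* held another copy of the element, from 10 to 17. The E-box CACGTG, bound by Myc among others, was present for 5 of the 23 (21.7%) against 7.15% of all promoters. The estrogen response element GGTCANNNTGACC was present for 0 of the 23 against 0.07% of all, and its single arm GGTCA for 8 (34.8%) against 40.5%. A match says only that these letters are in this window.

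At 24 hr the members were compared with saline for each compound. With a gene called at an unadjusted limma p under 0.001 and a change of at least 2-fold, 14 of the 30 rose after E2, and 0 fell. Of all probes tested, 6.95% were called higher and 11.1% lower in this comparison. Every one of the 30 had a positive change, from 0.28 for *Dars* to 3.33 for *Pycr1* on the log2 scale, with a median of 0.94, whereas the median over all probes was -0.06. For 29 of the 30, all but *Dars*, each E2 24 hr array lay above each saline array, a separation seen for 30.4% of all probes. Without a minimum fold, 28 members had a limma adjusted p under 0.05 (27.3% of all probes were higher and 34% lower by this rule). The exceptions were *Dars* and *Hars*. After E3, 1 member (*Pycr1*) was called higher and 0 lower, with 1.85% of all probes called higher and 1.99% lower, and the median was 0.17 against -0.01 for all probes. The E3 24 hr arrays lay above all saline arrays for 15 members and below for 2, against 7967 and 9780 of 34584 probes. With the normexp background correction the median over all probes after E3 was 0.30, and the members lay -0.20 from it at the median, the other side from the 0.18 of the main processing.

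**Figure D1:**
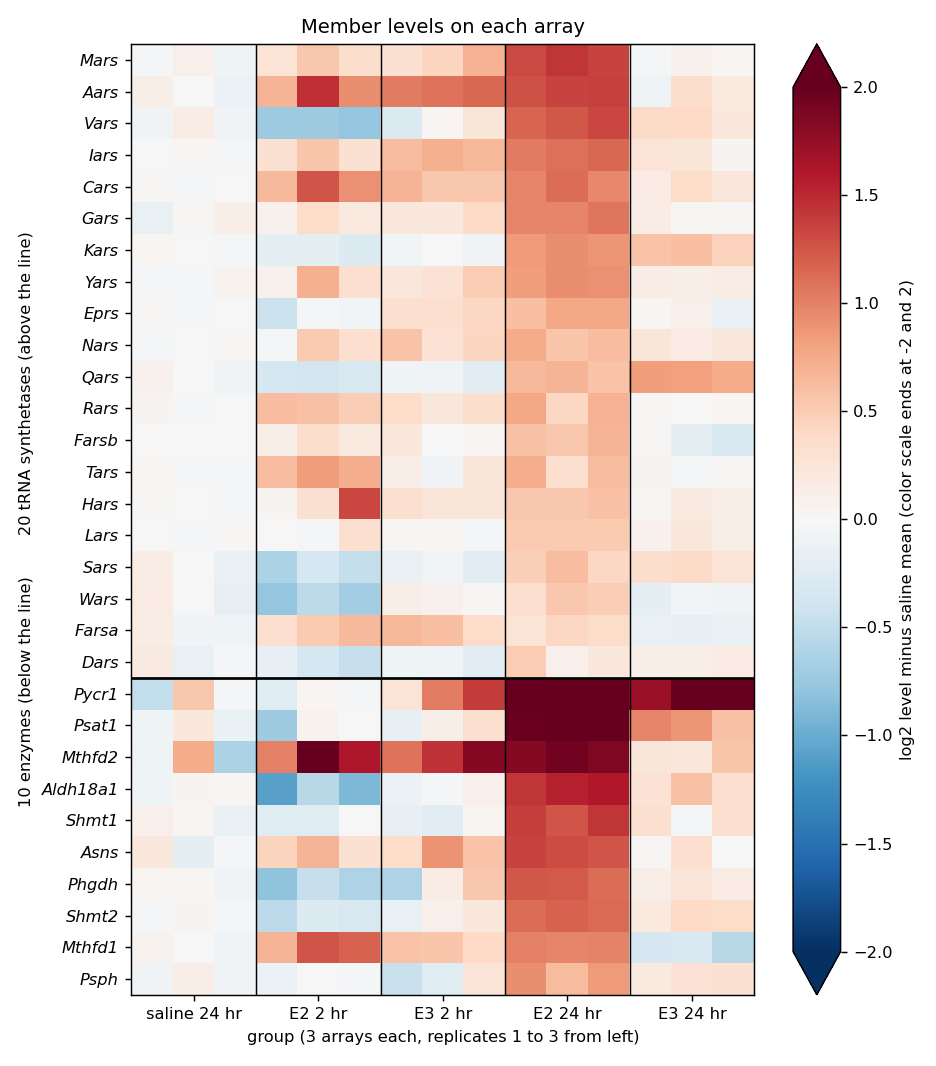
Heat map of the 30 members (rows) on the 15 arrays (columns, 3 per group). Color gives the log2 level minus the mean of the 3 saline arrays. The E2 24 hr columns are red for nearly every gene, with array medians of 0.94 to 0.95 over the 30 members, whereas the E3 24 hr columns are near 0 for most genes, with array medians of 0.14 to 0.23.

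The median of the 10 enzymes was 1.33 after E2 at 24 hr (2.52-fold), with 8 of 10 called higher, against 0.63 (1.55-fold) for the synthetases, with 6 of 20 called. The median over the 10 enzymes, relative to saline, was 1.36, 1.28, and 1.35 on the E2 24 hr arrays. The same median was 0.22, 0.32, and 0.33 on the E3 24 hr arrays.

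*Pycr1* encodes the mitochondrial reductase that completes proline synthesis. It lay at -5.05, -4.02, and -4.59 on the saline arrays, at -1.36, -1.09, and -1.22 after E2, and at -2.83, -2.17, and -2.52 after E3, all as log2 level relative to the array's 75th percentile. The 3 groups did not overlap, and *Pycr1* rose after both compounds, by 3.33 ± 0.29 after E2 and by 2.05 ± 0.29 after E3 (± gives the standard error, with 3 arrays in each group; limma adjusted p = 2.19e-06 and 0.000457). These were 10.1-fold and 4.13-fold changes. *Aldh18a1*, the enzyme that begins proline synthesis from glutamate, was at -1.31, -1.16, and -1.20 after saline, at 0.21, 0.32, and 0.38 after E2, and at -0.93, -0.63, and -0.89 after E3. It rose by 1.53 ± 0.13 after E2 (limma adjusted p = 1.68e-06). Its difference after E3 was 0.40 ± 0.13, under 2-fold.

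Of the 3 enzymes that make serine from a glycolytic intermediate, *Phgdh* and *Psat1* rose after E2. *Psat1*, the aminotransferase, was at 0.05, 0.36, and 0.01 on the saline arrays, at 2.11, 2.18, and 2.22 after E2, and at 1.12, 1.03, and 0.73 after E3. Its E3 arrays therefore lay between the other groups without overlap, with changes of 2.03 ± 0.20 after E2 (limma adjusted p = 4.24e-06) and 0.82 ± 0.20 after E3, which was not called. *Phgdh*, the dehydrogenase that commits carbon to serine, was at 2.25, 2.25, and 2.14 after saline, at 3.45, 3.43, and 3.33 after E2, and at 2.34, 2.47, and 2.38 after E3. It rose by 1.19 ± 0.21 after E2 (limma adjusted p = 0.000413), and the value after E3 was 0.18 ± 0.21. *Psph*, the phosphatase that completes the pathway, had a change of 0.81 ± 0.15 after E2, under 2-fold.

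*Asns*, which makes asparagine from aspartate and glutamine, was at 1.76, 1.37, and 1.52 on the saline arrays and at 2.90, 2.86, and 2.81 after E2. After E3 it was at 1.58, 1.89, and 1.54, overlapping saline. It rose by 1.31 ± 0.15 after E2 (limma adjusted p = 1.74e-05), and the value after E3 was 0.12 ± 0.15 (limma adjusted p = 0.586), with a 95% confidence interval of -0.22 to 0.46.

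Of the 4 folate and glycine enzymes, 3 rose after E2 at 24 hr. *Mthfd2*, the mitochondrial dehydrogenase and cyclohydrolase, was at -2.74, -1.90, and -3.26 after saline, at -0.80, -0.70, and -0.78 after E2, and at -2.40, -2.40, and -2.07 after E3. The saline arrays of *Mthfd2* spread widely (SD 0.69, the largest among the members in that group), and its change of 1.88 ± 0.35 after E2 had a limma adjusted p of 0.000516. *Shmt1*, the cytosolic enzyme that converts serine to glycine, was at -1.78, -1.84, and -2.00 after saline, at -0.49, -0.61, and -0.45 after E2, and at -1.56, -1.91, and -1.55 after E3. *Shmt2*, its mitochondrial counterpart, was at 0.47, 0.55, and 0.46, then at 1.62, 1.67, and 1.63, and at 0.69, 0.89, and 0.86 in the same order of groups. The changes after E2 were 1.36 ± 0.12 for *Shmt1* and 1.15 ± 0.10 for *Shmt2* (limma adjusted p = 1.92e-06 and 2.17e-06), and no E2 array overlapped another 24 hr group.

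*Mthfd1*, the trifunctional cytosolic enzyme of the folate cycle, stood just under the cutoff after E2 at 24 hr and on the other side of saline after E3. It was at 1.44, 1.37, and 1.29 after saline, at 2.37, 2.34, and 2.36 after E2, and at 1.02, 1.07, and 0.82 after E3. All 3 E3 arrays were below all 3 saline arrays, a separation seen for 9780 of 34584 probes. The changes were 0.99 ± 0.13 after E2 and -0.40 ± 0.13 after E3 (limma adjusted p = 0.034), neither of them called. With its other tested probe the change after E2 at 24 hr was 1.10 and was called.

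Among the synthetases, those for methionine (*Mars*), alanine (*Aars*), valine (*Vars*), isoleucine (*Iars*), cysteine (*Cars*), and glycine (*Gars*) rose after E2 at 24 hr. *Mars*, which also charges the initiator tRNA, was at 0.39, 0.52, and 0.33 on the saline arrays, at 1.74, 1.85, and 1.76 after E2, and at 0.38, 0.49, and 0.45 after E3, where saline and E3 overlapped. *Aars* was at 1.77, 1.66, and 1.54, then at 2.93, 3.01, and 3.02, and at 1.56, 2.01, and 1.85 in the same order, again with saline and E3 overlapping. The changes after E2 were 1.37 ± 0.11 for *Mars* and 1.34 ± 0.17 for *Aars* (limma adjusted p = 9.87e-07 and 2.76e-05). After E3 they were 0.03 ± 0.11 and 0.15 ± 0.17. Of the 5 tested probes of *Aars*, 3 had a negative value for E2 at 24 hr, and 0 of these were called. With the mean of its probes the *Aars* call was lost.

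*Vars* was at 0.51, 0.72, and 0.51 after saline, at 1.75, 1.82, and 1.92 after E2, and at 0.97, 0.98, and 0.79 after E3. *Iars* was at 1.68, 1.70, and 1.64, then at 2.71, 2.78, and 2.83, and at 1.95, 1.92, and 1.74 in the same order. *Cars* was at 0.49, 0.44, and 0.45, then at 1.44, 1.58, and 1.43, and at 0.63, 0.82, and 0.69. For these 3 genes the E3 arrays lay above the saline arrays and below the E2 arrays. Of all probes, 7967 of 34584 had their E3 24 hr arrays above saline. After E2 the changes were 1.25 ± 0.12 for *Vars*, 1.09 ± 0.09 for *Iars*, and 1.02 ± 0.13 for *Cars*, and after E3 they were 0.33 ± 0.12, 0.19 ± 0.09, and 0.25 ± 0.13, none of them called.

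The count of 6 synthetases turned on small distances from the 2-fold cutoff. *Gars*, just above it, was at -0.43, -0.26, and -0.15 after saline and at 0.70, 0.70, and 0.79 after E2, a change of 1.01 ± 0.10. *Kars* and *Yars*, just below it, each changed by 0.89 (SE 0.07 and 0.13), with limma adjusted p-values of 6.54e-07 and 9.55e-05. The other 12 synthetases ranged from 0.28 (*Dars*) to 0.72 (*Eprs*). The 8 synthetases of the multisynthetase complex, in which several of these enzymes are held together, had a median of 0.67 and the other 12 a median of 0.62, with 2 and 4 called. The 10 synthetases of structural class I had a median of 0.80 and the 10 of class II a median of 0.58, with 4 and 2 called.

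**Figure D2:**
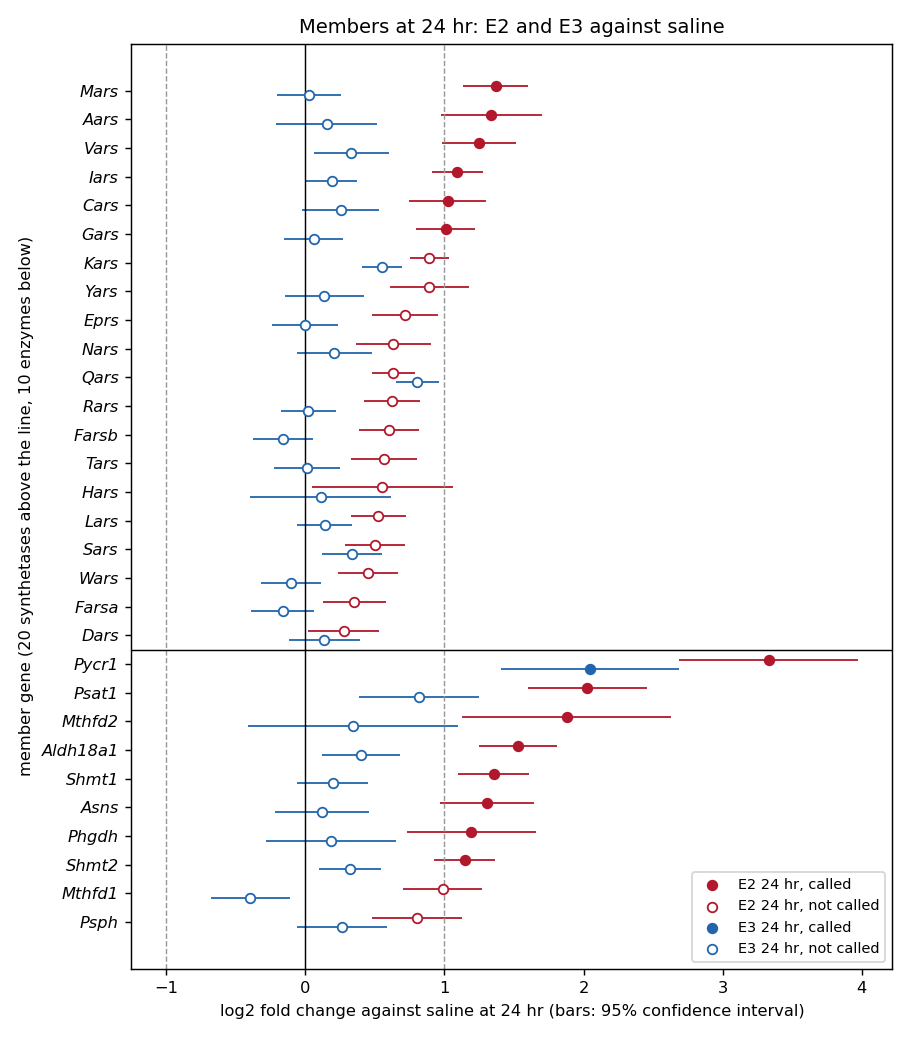
Log2 fold change of each member against saline at 24 hr for E2 (red) and E3 (blue), with 95% confidence intervals. Filled points are called, and dashed lines mark 2-fold. Red lies to the right of blue for every member but *Qars*, and *Pycr1* is the only member with a filled blue point.

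By an adjusted p under 0.05 with no minimum fold, 7 members were higher after E3 at 24 hr than after saline (*Kars*, *Qars*, *Sars*, *Psat1*, *Shmt2*, *Aldh18a1*, and *Pycr1*) and 1 was lower (*Mthfd1*), against 15.4% and 18.6% of all probes. The largest of the E3 values among the synthetases were those for glutamine (*Qars*) and lysine (*Kars*). *Qars* changed by 0.81 ± 0.07 after E3 and by 0.63 ± 0.07 after E2 at 24 hr, and *Kars* by 0.55 ± 0.07 and 0.89 ± 0.07. *Qars* was the only member whose E3 24 hr arrays (4.40, 4.38, and 4.31) all lay above its E2 24 hr arrays (4.21, 4.24, and 4.12), a difference of 0.17 ± 0.07 (limma adjusted p = 0.074) that was not called.

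The direct comparison of the compounds at the matched dose gave 10 members lower after E3 than after E2 at 24 hr and 0 higher, with 2.09% of all probes called lower and 2.75% higher. The median difference was -0.77 over the members and 0.06 over all probes, and 29 of 30 were below 0. The E3 arrays lay below all E2 arrays for 28 members and above for 1, against 7615 and 10042 of 34541 probes. The 10 were 8 enzymes (*Mthfd2*, *Mthfd1*, *Pycr1*, *Psat1*, *Asns*, *Shmt1*, *Aldh18a1*, and *Phgdh*) and the synthetases *Mars* and *Aars*, with differences from -1.01 for *Phgdh* to -1.53 for *Mthfd2*. For *Mars* it was -1.34 ± 0.11 (limma adjusted p = 7.86e-06), and for *Mthfd1* -1.39 ± 0.13 (limma adjusted p = 2.08e-05). Of the 14 members that rose after E2, 9 were among the 10. The remaining 5 were *Vars* (-0.92), *Iars* (-0.90), *Cars* (-0.77), *Gars* (-0.95), and *Shmt2* (-0.82). Without a minimum fold, 26 members were lower after E3 at a limma adjusted p under 0.05 (15.8% of all probes were, and 20.5% were higher), the others being *Dars*, *Hars*, *Qars*, and *Sars*. For *Sars* and *Dars* the 95% confidence intervals of the difference were -0.38 to 0.05 and -0.40 to 0.11.

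Some of these calls rested on few arrays, lay near the cutoffs, or changed with the probe. Leaving out each array in turn gave 7 to 10 called members in the comparison of the compounds, and the *Pycr1* difference (-1.28 ± 0.29) and the *Mthfd2* difference (-1.53 ± 0.35) were those most often lost. The *Aars* call was lost with the mean of its probes and with its dimmest probe. The *Shmt1* call was lost with its dimmest probe and with the normexp background correction. The array means of these uteri cannot tell more RNA per cell from more cells of a type. The 5 markers of uterine epithelium summed to 154.3 to 165.2 on the E2 24 hr arrays (in units of each array's 75th percentile), to 119.5 to 128.9 on the E3 24 hr arrays, and to 71.38 to 97.44 on the saline arrays. Of these, 3 of 5 were called higher after E2 (6.95% of all probes) and 0 of 5 after E3 (1.85%). By an adjusted p under 0.05 with no minimum fold, all 5 were higher after each compound (27.3% and 15.4% of all probes). The 7 markers of stroma and smooth muscle summed to 263.2 to 277 after E2, 262.2 to 310.1 after E3, and 184.1 to 206.8 after saline. Of these 7, 2 were called higher after E2 and 1 after E3. All 5 epithelial markers were well above background on all arrays, and their part in the changes of the members was not tested.

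Transcripts of other organs were present on some arrays. The 9 markers of exocrine pancreas summed to 347.1 on E2 24 hr replicate 2 and 737.1 on E3 2 hr replicate 2, to 6.63 and 15.3 on replicate 3 of the same groups, and to 0.34 to 0.75 on the other 11 arrays. The member medians on the 3 E2 24 hr arrays were 0.95, 0.95, and 0.94, while single members such as *Tars* (3.81, 3.43, and 3.72) and *Rars* (-0.42, -0.78, and -0.49) were lowest on replicate 2. Without the 4 arrays, the member median was 0.95 for E2 at 24 hr and -0.75 for E3 against E2. A single array was then left in 2 of the groups, so no count of calls is given, though calls were lost. The 9 liver markers summed to 6.50 to 24.35 on the saline arrays and to 0.28 to 0.61 on the 24 hr arrays of either compound. At 2 hr they summed to 0.044 to 0.052 after E2, where 3 or 4 of the 9 were well above background, and to 1.59 to 4.08 after E3. The 6 fat markers summed to 13.57 to 21.34 after E2 at 24 hr, 14.17 to 73.28 after E3, and 19.16 to 99.58 after saline, with 0 of 6 called. The 5 skeletal muscle markers summed to 8.54 to 11.51, 5.61 to 8.61, and 3.60 to 3.97 in the same order, with *Acta1* and *Ckm* called higher after E2. The part of these transcripts in the members' values was not tested.

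After 2 hr, few of the members differed by 2-fold from saline. After E2, 3 of 30 were called higher (*Aars*, *Mthfd1*, and *Mthfd2*) and 0 lower, when 10.8% of all probes were called higher and 10.3% lower. After E3, 1 was called higher (*Aars*) and 0 lower, when 4.83% of all probes were higher and 8.82% lower. The member medians were 0.15 after E2 and 0.19 after E3, against -0.06 and -0.09 for all probes. These shares of members were near or below those of all probes. By an adjusted p under 0.05 with no minimum fold, 11 members were higher and 9 lower after E2 at 2 hr (29.9% and 31.9% of all probes), and 13 were higher and 0 lower after E3 (19.4% and 29.8%).

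*Aars* was at 2.33, 3.11, and 2.59 on the E2 2 hr arrays and at 2.69, 2.73, and 2.81 on the E3 2 hr arrays, all above its saline arrays. It rose by 1.02 ± 0.17 after E2 (limma adjusted p = 0.000189) and by 1.09 ± 0.17 after E3 (limma adjusted p = 0.000175). *Mthfd2* was at -1.62, -0.35, and -1.02 after E2 and at -1.56, -1.19, and -0.80 after E3. These values were all above saline as well, with changes of 1.64 ± 0.35 (called) and 1.45 ± 0.35 (limma adjusted p = 0.00398, not called). The E3 change of *Mthfd2* was called under 10 of the other settings run, and its E2 call was lost under 7. *Mthfd1* was at 2.05, 2.62, and 2.54 after E2, where it rose by 1.04 ± 0.13, and at 1.93, 1.92, and 1.76 after E3, a change of 0.50 ± 0.13. With its other tested probe the *Mthfd1* change after E2 at 2 hr was 0.88 and was not called. Leaving out E2 2 hr replicate 2, the array with the highest *Aars*, *Mthfd1*, and *Mthfd2* of its group, left 0 members called for E2 at 2 hr.

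*Asns*, *Cars*, *Iars*, and *Mars* stood above every saline array in both 2 hr groups without reaching 2-fold. *Asns* was at 2.00, 2.23, and 1.85 after E2 and at 1.91, 2.45, and 2.12 after E3. *Cars* was at 1.11, 1.72, and 1.37 after E2 and at 1.14, 1.00, and 0.99 after E3. The change of *Cars* after E2, 0.94 ± 0.13, was the largest of the 8 values of these 4 genes. *Iars* was at 1.98, 2.23, and 1.98 after E2 and at 2.31, 2.38, and 2.34 after E3. *Mars* was at 0.68, 0.95, and 0.76 after E2 and at 0.71, 0.84, and 1.11 after E3.

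Other members lay below saline after E2 at 2 hr and near it after E3. *Aldh18a1* was at -2.31, -1.78, and -2.13 after E2 and at -1.35, -1.25, and -1.12 after E3, with changes of -0.85 ± 0.13 and -0.02 ± 0.13. *Vars* was at -0.14, -0.12, and -0.19 after E2 and at 0.29, 0.62, and 0.83 after E3. For *Aldh18a1* and *Vars*, and likewise for *Phgdh* and *Shmt2*, every E2 2 hr array was below every saline array. *Phgdh* was at 1.41, 1.75, and 1.60 after E2 and at 1.59, 2.35, and 2.74 after E3, where its arrays spread widely. *Shmt2* was at -0.03, 0.22, and 0.18 after E2 and at 0.34, 0.59, and 0.70 after E3.

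The remaining 3 of these genes overlapped saline in both 2 hr groups. *Psat1* was at -0.57, 0.21, and 0.13 after E2 and at -0.02, 0.26, and 0.46 after E3. *Shmt1* was at -2.11, -2.11, and -1.88 after E2 and at -2.04, -2.08, and -1.84 after E3. *Pycr1*, which had the largest change among the members at 24 hr, was at -4.80, -4.51, and -4.60 after E2 and at -4.30, -3.53, and -3.15 after E3 at 2 hr.

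**Figure D3:**
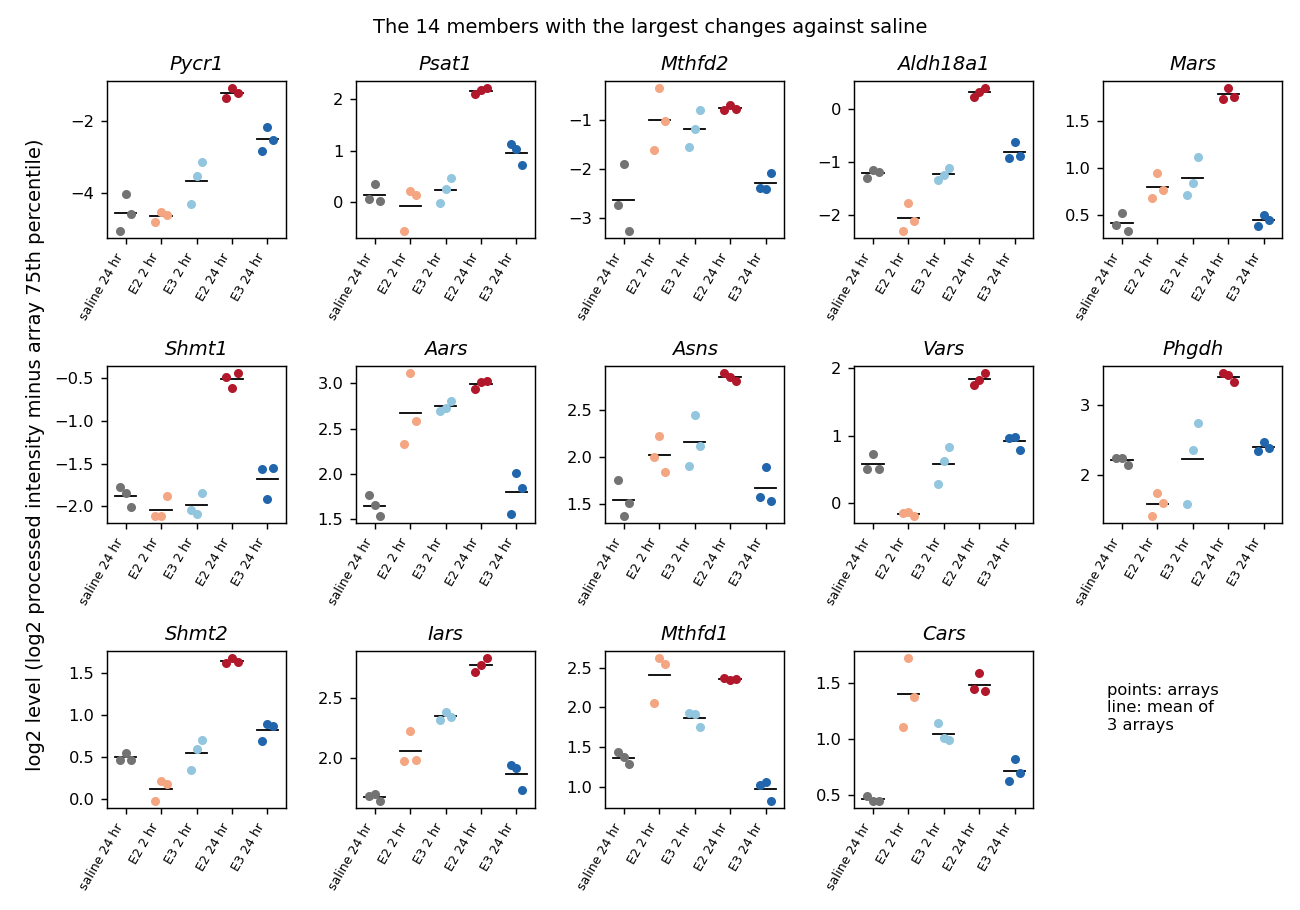
Log2 level (log2 processed intensity minus the array's 75th percentile) of the 14 members with the largest changes against saline, by group. Points are arrays and lines are means of 3 arrays. *Pycr1*, *Psat1*, *Aldh18a1*, *Shmt1*, and *Shmt2* are high only after E2 at 24 hr among the E2 groups, while *Aars*, *Mthfd1*, *Mthfd2*, and *Cars* already stand above saline at 2 hr.

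In all, 13 members had their 3 E2 2 hr arrays above all saline arrays and 9 had them below, with 32.1% and 35.2% of all probes so placed. For E3 at 2 hr the numbers were 14 and 1, with 22.9% and 35% of all probes. The E3 2 hr arrays shared a slide with saline replicate 3, and against that single saline array 23 of 30 members were higher, with a median of 0.23, whereas 47.2% of all probes were higher, with a median of -0.05.

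After E2, 9 members were called higher at 24 hr than at 2 hr (*Pycr1*, *Aldh18a1*, *Psat1*, *Vars*, *Phgdh*, *Shmt1*, *Shmt2*, *Wars*, and *Kars*) and 0 lower, with 13.5% of all probes called higher and 17.6% lower. *Pycr1* differed by 3.41 ± 0.29 and *Aldh18a1* by 2.37 ± 0.13 between the times. For *Aars* (0.31 ± 0.17), *Cars* (0.08 ± 0.13), *Mthfd1* (-0.05 ± 0.13), and *Mthfd2* (0.24 ± 0.35) the 24 hr values were not called different from those at 2 hr. For *Aars* this held for its brightest probe, whereas its dimmest tested probe gave -3.32 and the mean of its probes -1.96. After E3, 0 members were called in either direction between the times, with 9.31% of all probes called higher and 6.66% lower. The largest values were 1.15 ± 0.29 for *Pycr1* and -1.11 ± 0.35 for *Mthfd2*. With the replicate number as a block over all 15 arrays, 1 was called (*Pycr1* at 1.15 ± 0.20, limma adjusted p = 0.000658). That fit was not a paired test of E3. For E3, *Aars* was lower at 24 hr than at 2 hr by -0.94 ± 0.17 and *Mthfd1* by -0.90 ± 0.13, with no overlap of arrays. Such a separation downward was seen for 15 members and for 8925 of 34550 probes. By the rule with no minimum fold, 22 members were higher and 0 lower at 24 than at 2 hr after E2 (33.8% and 36.1% of all probes), and 10 were higher and 10 lower after E3 (31.7% and 23.1%). With their dimmest tested probes, *Iars* (-2.22), *Dars* (-1.68), and *Qars* (-1.11) also turned direction between the times after E2. The 2 hr and 24 hr groups of E2 differed in strain, slides, and scanner as well as in time.

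At 2 hr itself, 0 members differed between E3 and E2 at the cutoffs (1.54% of all probes were higher after E3 and 5.83% lower), although 15 had a limma adjusted p under 0.05, 11 with E3 higher and 4 with E3 lower (16.9% and 26.3% of all probes). The largest differences were 0.98 ± 0.29 for *Pycr1*, 0.83 ± 0.13 for *Aldh18a1*, 0.74 ± 0.10 for *Wars*, and 0.73 ± 0.12 for *Vars*, with E3 higher. For *Aars* the difference was 0.07, with a 95% confidence interval of -0.30 to 0.43, and for *Mars* 0.09, from -0.14 to 0.32. All 9 liver markers were called higher after E3 than after E2 at 2 hr, and 8 of 9 lower in the interaction, with 5 or 6 of the 9 not well above background on the E2 2 hr arrays, so that no size is given.

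The difference between the compounds changed with time for 14 members, all toward a lower E3 level at 24 hr, with 4.41% of all probes called in that direction and 11% in the other. This interaction, the E3 minus E2 difference at 24 hr less that at 2 hr, had a median of -0.93 over the members and 0.11 over all probes. It was largest for *Pycr1* (-2.26 ± 0.42), *Aldh18a1* (-1.95 ± 0.18), *Phgdh* (-1.65 ± 0.30), and *Vars* (-1.65 ± 0.17). For *Mars* the difference went from 0.09 at 2 hr to -1.34 at 24 hr, and for *Asns* from 0.14 to -1.19. For *Qars*, *Tars*, and *Hars* the interaction was -0.05 ± 0.10, 0.07 ± 0.15, and -0.15 ± 0.33. With no minimum fold, 23 members were lower and 0 higher by an adjusted p under 0.05 (17.7% and 28.3% of all probes). Without the 4 arrays with pancreas transcripts the median was -0.92. In that fit E2 24 hr and E3 2 hr had a single array each, assumed to vary like the other groups, so no count of calls is given. The 14 members had values from -0.91 for *Gars* to -1.76 for *Aldh18a1* there, and not all of them kept their call. The interaction uses the E2 2 hr arrays.

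**Figure D4:**
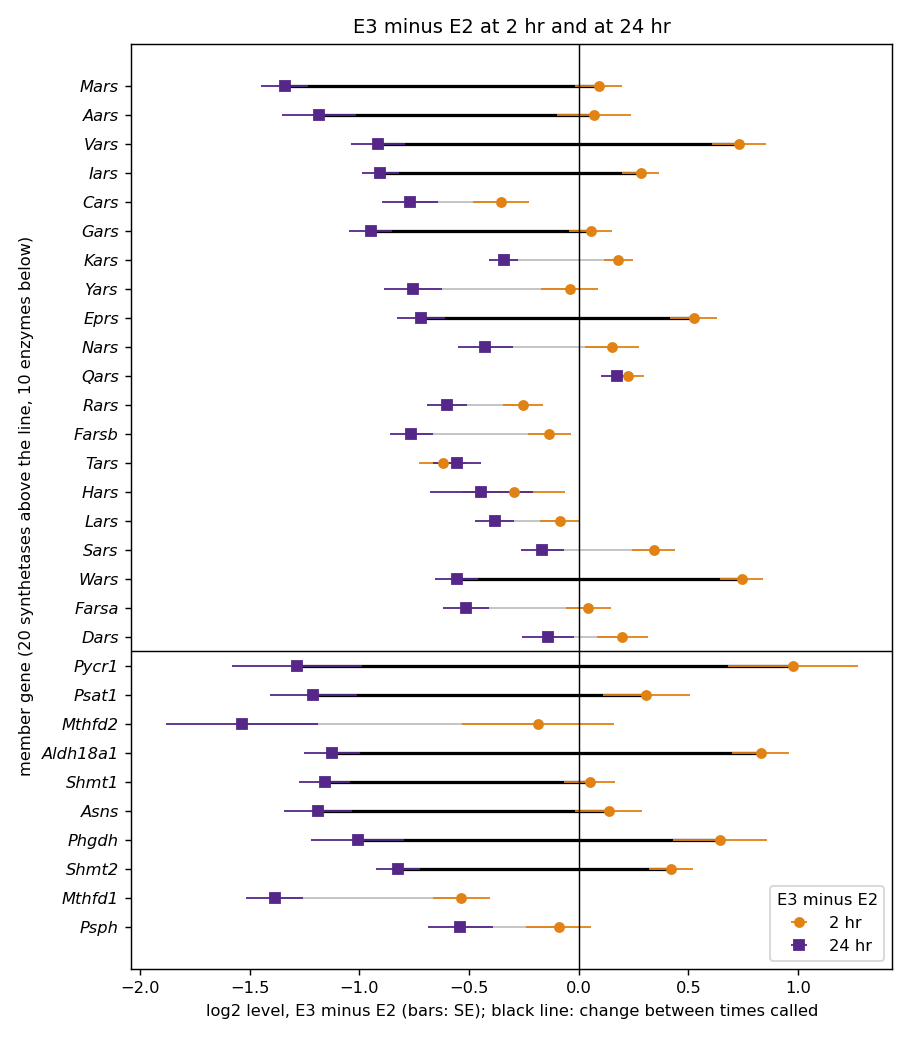
E3 minus E2 log2 level of each member at 2 hr (orange circles) and at 24 hr (purple squares), with standard errors. Black lines join the times where the change between them was called. Squares lie left of 0 for every member but *Qars*, and the 14 black lines all run to the left, the longest that of *Pycr1* from 0.98 to -1.28.

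Related genes on the array, from lists drawn up for this comparison, put the members' values in context. The ATF4 pathway list (19 genes tested, with ATF4, its partners, and other known targets) had these calls: 8 rose and 1 fell after E2 at 2 hr, 6 rose and 1 fell after E3 at 2 hr, 1 rose and 1 fell after E2 at 24 hr, and 0 were called after E3 at 24 hr. Of all probes, 10.8% were called higher and 10.3% lower after E2 at 2 hr, 4.83% and 8.82% after E3 at 2 hr, and 6.95% and 11.1% after E2 at 24 hr. *Atf4* itself was at 0.37, 0.39, and 0.37 on the saline arrays, at 2.77, 3.03, and 2.67 after E2 and 2.61, 2.55, and 2.37 after E3 at 2 hr, and at 0.89, 0.78, and 0.81 after E2 and 0.33, 0.37, and 0.43 after E3 at 24 hr. It was therefore high in all 6 arrays at 2 hr, by 2.45 ± 0.10 after E2 and 2.13 ± 0.10 after E3 (limma adjusted p = 3.99e-09 and 1.87e-08), and at 24 hr its changes were 0.45 ± 0.10 and 0.00 ± 0.10, which were not called. *Cebpb*, a partner of ATF4 in binding such elements, rose by 3.37 ± 0.18 after E2 and 2.33 ± 0.18 after E3 at 2 hr. *Chac1*, a glutathione-degrading target, rose by 3.32 ± 0.27 and 2.85 ± 0.27, and *Atf3*, another target, by 2.64 ± 0.33 and 2.30 ± 0.33. *Cth*, which makes cysteine, fell at 2 hr, with changes of -1.78 ± 0.24 after E2 and -1.47 ± 0.24 after E3. At 24 hr the called genes were *Stc2* (2.44 ± 0.16) and *Ddit3* (-1.19 ± 0.14), both after E2. With no saline arrays at 2 hr, compound and time after injection cannot be told apart for the 2 hr changes of this list.

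The 7 members with the C/EBP-ATF element shown above and the 16 without it had medians of 1.09 and 0.94 after E2 at 24 hr, with 5 and 7 called. At 2 hr the medians were 0.39 and -0.19 after E2 and 0.61 and 0.03 after E3, with 1 and 2 called after E2 and 1 and 0 after E3. Of all probes, 6.95% were called higher after E2 at 24 hr, 10.8% after E2 at 2 hr, and 4.83% after E3 at 2 hr. The 2 hr counts in lists this short are too few to set against those shares. The element was thus found both for *Pycr1* and *Asns*, which were called against saline at 24 hr and not at 2 hr, and for *Aars*, which was called at both times. It was not found in the windows of *Psat1*, *Phgdh*, or *Mthfd2*.

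Of the other folate and glycine genes (11 tested), 6 rose and 1 fell after E2 at 24 hr, with a median of 1.02, when 6.95% of all probes were called higher and 11.1% lower. *Aldh1l2*, a mitochondrial enzyme that releases formate carbon as carbon dioxide, rose by 3.24 ± 0.27, *Tyms*, which makes thymidylate, by 2.10 ± 0.13, and *Mthfd1l*, the mitochondrial partner of *Mthfd2*, by 1.57 ± 0.19. *Ftcd*, a liver enzyme of histidine breakdown, changed by -2.49 ± 0.45, in the same groups in which the liver markers were lower than in saline. After E3 at 24 hr *Aldh1l2* rose (2.39 ± 0.27), *Ftcd* again lay below saline (-2.80 ± 0.45, called), when 1.85% and 1.99% of all probes were called higher and lower, and the median was 0.19. Between the compounds at 24 hr, *Tyms* and *Mthfd1l* were lower after E3, by -1.21 ± 0.13 and -1.11 ± 0.19.

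The mitochondrial synthetases (14 tested) had a median of 0.55 after E2 at 24 hr, with 1 rising (*Sars2*, 1.12 ± 0.08), and 0.00 after E3, with 0 called. At 2 hr *Pars2* fell after E2 (-1.66 ± 0.09) and *Mars2* rose after E3 (1.02 ± 0.12). A count of 1 in 14 is near the shares of all probes, 6.95% higher after E2 at 24 hr, 10.3% lower after E2 at 2 hr, and 4.83% higher after E3 at 2 hr. By an adjusted p under 0.05 with no minimum fold, 11 of the 14 were higher and 1 lower after E2 at 24 hr. By that rule 27.3% of all probes were higher and 34% lower. Of the 4 genes for complex scaffold proteins and tRNA export, *Eef1e1* rose at 2 hr after both compounds (1.38 ± 0.08 and 1.37 ± 0.08) and *Jtv1*, the scaffold now named Aimp2, rose after E2 at 24 hr (1.05 ± 0.08). Among 13 other genes of proline, glutamate, glutamine, and aspartate metabolism, *Got1*, the cytosolic aspartate aminotransferase, rose by 2.28 ± 0.10 and 2.12 ± 0.10 at 2 hr after E2 and E3, and by 1.14 ± 0.10 after E2 at 24 hr, and 0 others were called in the 4 comparisons with saline. Over the list this count of 1 is near the 10.8%, 4.83%, and 6.95% of all probes called higher in these comparisons, and the 4 scaffold and export genes are too few to set against those shares.

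**Figure D5:**
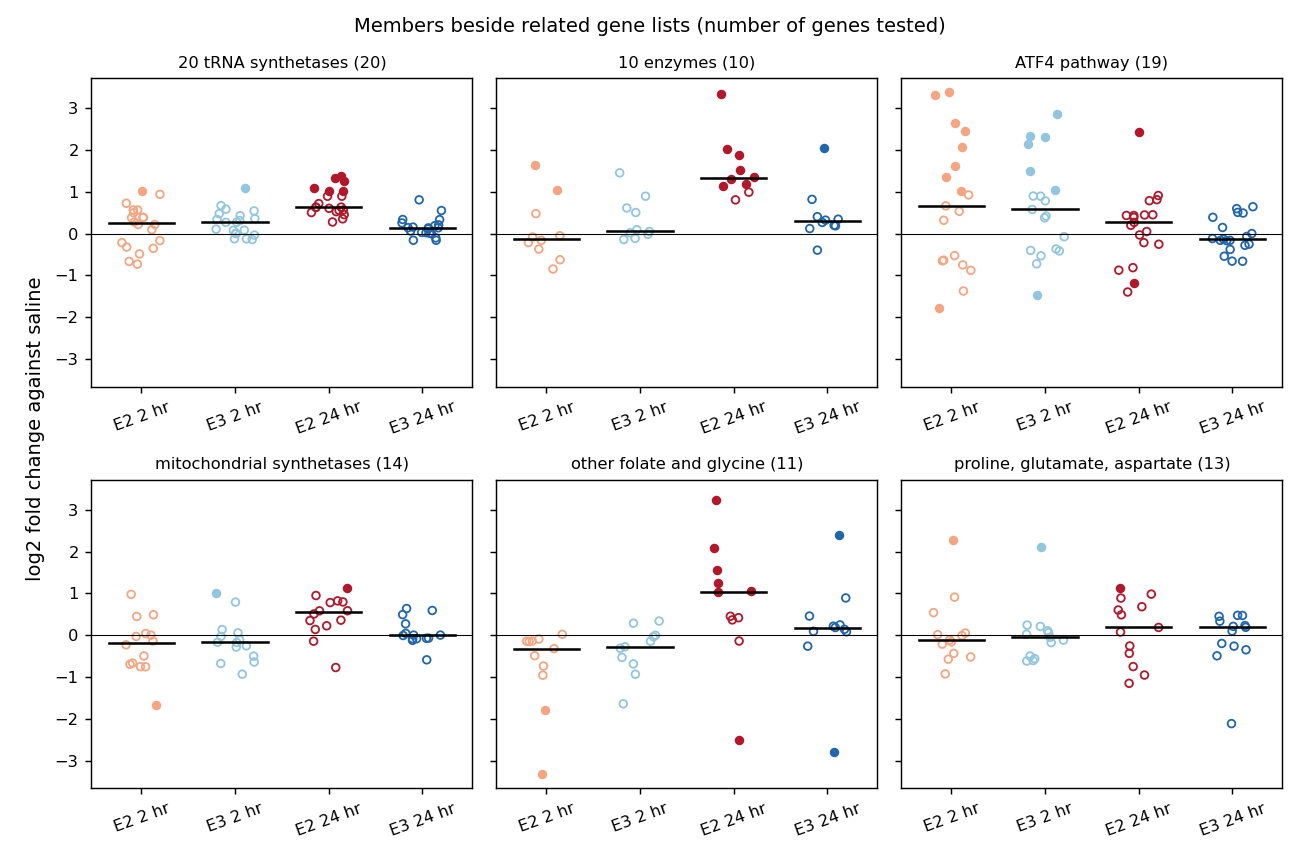
Log2 fold changes against saline of the synthetases, the enzymes, and 4 related lists, by treatment and time, where each point is a gene, filled when called, and black lines are medians. The enzymes reach their highest median (1.33) after E2 at 24 hr, whereas the ATF4 pathway has 8 filled points above 0 after E2 at 2 hr and 1 at 24 hr.

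Several members had more than 1 probe, and those probes did not always show the same direction. Of the 17 members with 2 or more tested probes, 10 had all probes on the same side of 0 for E2 at 24 hr. *Aars*, *Iars*, *Hars*, *Lars*, *Farsa*, *Qars*, and *Dars* each had at least 1 probe with a negative value, as low as -0.56 for *Aars* and *Iars* and -0.90 for *Dars*, and 0 of these negative values were called. For *Aars* they were 3 of its 5 tested probes, and for *Dars* 2 of 4.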

How the data were processed

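The authors hybridized Cy3-labeled cRNA from each sample to a one-color Agilent whole mouse genome array and extracted spot values with Agilent Feature Extraction (version 9.5, one-color defaults). The deposited values used are processed intensities per spot, after the software's background and spatial correction and without scaling between arrays. The number of arrays limits the precision, since intensities carry no read depth. On each array, 77.7 to 81.64% of probes were well above background, and the 75th percentile of the processed intensity was 2845 to 4187.

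Control spots and spots marked as outliers were left out, spots of a probe were averaged, and values were expressed as log2 intensity minus each array's 75th percentile. A probe was tested where at least 2 arrays of some group had it well above background (84.4% of probes), with lmFit and eBayes of limma 3.58.1 in R 4.3.3, in 1 fit over all 15 arrays with 10 residual and 2.06 prior degrees of freedom. A call required a limma p under the study's cutoff of 0.001 and a change of at least 2-fold. Adjusted p-values are Benjamini-Hochberg values over all probes tested. The 9 comparisons were each compound against saline, E3 against E2, 24 against 2 hr, and the interaction. No member's duplicate probes were combined, and the brightest probe stood for the gene. Figures were drawn with matplotlib 3.10.9 in Python 3.11.15.

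Groups were taken from the sample labels. Deviations from the group means correlated at 0.38, 0.11, and 0.54 between same-numbered arrays of E3 at 2 and 24 hr, which were treated as paired by these data and not by the labels, and the replicate block is given for that comparison. Values on every array are given for the 14 members with the largest change against saline among those called, and for members near a cutoff. From the related lists, at most 4 called genes were named for each list, by the size of their change, and *Cth*, *Stc2*, and *Ddit3* were named besides, after their values were seen. The members and lists were chosen with earlier results of these data known. Alternatives changed the background correction, scaling, probe filter, call, probe choice, arrays in the fit, and slide or replicate terms. The fit and the call were checked on simulated log2 values for E2 24 hr against saline, with 3-fold and 8-fold changes. The steps before the fit, the other comparisons, and changes near 2-fold were not simulated. The deposited table of the whole series held the same values as the scanner output and was not used further.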

Additional observations from a re-analysis of the deposited data

Results flagged for a closer look

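For 14 members the difference between E3 and E2 changed from 2 to 24 hr, by the test of that change itself (limma interaction). All 14 moved toward a lower E3 level, and each value is the E3 minus E2 difference at 24 hr less that at 2 hr on the log2 scale. Among the enzymes the values were -2.26 for *Pycr1*, -1.95 for *Aldh18a1*, -1.65 for *Phgdh*, -1.52 for *Psat1*, -1.32 for *Asns*, -1.25 for *Shmt2*, and -1.21 for *Shmt1*. Among the synthetases they were -1.65 for *Vars*, -1.43 for *Mars*, -1.30 for *Wars*, -1.25 for *Aars*, -1.24 for *Eprs*, -1.19 for *Iars*, and -1.0 for *Gars*. With its dimmest tested probe the value for *Iars* turned to 0.28, and the call for *Gars* was lost under 10 of the settings run, 6 of them the omission of a single array. The call for *Aars* was lost with the mean of its probes and with its dimmest probe. That for *Iars* was lost with the mean of its probes, and that for *Eprs* with its dimmest probe. *Mthfd1* was called with the mean of its probes and with its dimmest probe.

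The genes reached these values by different routes. For *Aars*, *Gars*, *Mars*, and *Shmt1* the compounds differed by 0.05 to 0.09 at 2 hr, and the value came almost wholly from 24 hr. For *Wars* the larger part came from 2 hr, where E3 was higher by 0.74, against -0.56 at 24 hr, and for *Vars*, *Aldh18a1*, and *Pycr1* both times contributed. Leaving out the 4 arrays with pancreas transcripts left a single array in E2 24 hr and in E3 2 hr, assumed to vary like the other groups. The 14 values were then from -0.91 for *Gars* to -1.76 for *Aldh18a1*, and not all of the calls remained. The median over all 30 members was -0.92, against -0.93 with all arrays. All 14 values use the E2 2 hr arrays, whose strain, slides, and scanner differed from those of the other groups, so that these and the compound cannot be told apart at 2 hr. At 24 hr the E2 and E3 arrays were on different slides, and compound and slide cannot be told apart there.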

How the results depend on the processing

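The median change of the 30 members was 0.83 to 0.95 for E2 at 24 hr, 0.10 to 0.21 for E3 at 24 hr, and -0.84 to -0.74 for E3 against E2 at 24 hr over the settings run. Under normexp the E3 24 hr median over all probes moved from -0.01 to 0.30, and that of E3 against E2 from 0.06 to 0.42. Counts of called members that moved by over 1.5 times were as follows. The share of all probes called under each setting is not given beside them. These counts therefore do not tell a change of the members from a change over all probes. For E2 at 2 hr (3 called) they were 1 with quantile normalization, with the percentile over probes detected on all arrays, and with only the groups compared, and 6 with the dimmest probe. For E3 at 2 hr (1) they were 2 with quantile normalization, no scaling, a mean signal above 100, adjusted p under 0.05 with 2-fold, the dimmest probe, or without the E2 2 hr arrays. For E3 against E2 at 2 hr (0) they were 1 with the mean of probes and 3 with the dimmest. For 24 against 2 hr they were 16 for E2 (9) with the dimmest probe, and for E3 (0) 2 with normexp, 2 with adjusted p and 2-fold, 1 with the mean of probes, and 4 with the dimmest. An adjusted p under 0.05 with no minimum fold gave 20 and 13 at 2 hr for E2 and E3, 28 and 8 at 24 hr, 15 and 26 for E3 against E2 at 2 and 24 hr, 22 and 20 for 24 against 2 hr, and 23 for the interaction.

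Leaving out each array in turn gave 0 to 4 members for E2 at 2 hr (0 without E2 replicate 2, 1 without E2 replicate 3 or saline replicate 3, 4 without E2 replicate 1), 1 to 2 for E3 at 2 hr (2 without saline replicate 2, E2 2 hr replicate 1 or 2, or E3 2 hr replicate 1), 13 to 14 for E2 at 24 hr, and 1 to 1 for E3 at 24 hr. It gave 0 to 1 for E3 against E2 at 2 hr (1 without E3 replicate 1), 7 to 10 at 24 hr, 9 to 11 and 0 to 1 for 24 against 2 hr with E2 and E3 (1 for E3 without E3 2 hr replicate 3 or E3 24 hr replicate 2), and 13 to 14 for the interaction. Leaving out the 4 arrays with pancreas transcripts, a setting chosen after seeing the data, gave 0 for E3 at 2 hr, 5 for E3 against E2 at 24 hr, and 7 for the interaction. Leaving out only the 2 with the most gave 7 and 10 for the latter comparisons.

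Among values called in either setting, the dimmest probe of a gene reversed the direction for E2 at 24 hr in *Aars* and *Iars* (both -0.56), for E3 against E2 at 2 hr in *Dars* (-1.24), for E2 at 24 against 2 hr in *Aars* (-3.32), *Iars* (-2.22), *Dars* (-1.68), and *Qars* (-1.11), and for the interaction in *Dars* (1.36), *Qars* (1.30), and *Iars* (0.28). The mean of probes did so for E2 at 24 against 2 hr in *Aars* (-1.96). Counting values that were not called as well, the sign changed with the dimmest probe for 7 members for E2 at 24 hr, 3 for E3 against E2 at 24 hr, and 6 for the interaction, and with the mean of probes for 1, 1, and 4. The cause was not tested.

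Arrays with the same replicate number deviated together for E3 at 2 and 24 hr (correlations of 0.11 to 0.54). For the other pairs of groups at least 1 correlation was under 0.1, and there the arrays share only a number. A replicate block gave 2 members for E3 at 2 hr, 1 for E3 at 24 against 2 hr, and 14 and 10 for E2 and for E3 against E2 at 24 hr. Slide as a random block gave 14 and 10 for the same 24 hr comparisons, in which no slide held both groups, so that these counts say nothing about a slide effect. The deposited series table gave no separate setting, since its values equaled the scanner values.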
